A study of Drosophila melanogaster
Mus musculus with 36 samples.

Results

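The libraries described here were the 6 made from mixtures of 1 part fly RNA to 10 parts mouse RNA, of 36 libraries in the series. They were chosen by their labels alone, as 3 oxidised and 3 untreated libraries, and all 372 fly and 1666 mouse miRNA entries in their files were used. The fly RNA came from S2-S cells, a Drosophila line of embryonic origin, that lack the fly Hen1 gene and carry a FLAG- and MYC-tagged HEN1 of Arabidopsis thaliana (DmHen1-KO; FLAG-MYC-AthHEN1). The mouse RNA came from embryonic stem cells of clone AN3-12, without such a transgene. Every library of both groups held RNA of both kinds of cell, and the groups differed only in periodate oxidation of the small RNAs. Each mixture was divided before that step, so every oxidised library had an untreated partner. The sources used here name neither the promoter of the transgene nor whether the fly line is 1 clone, nor do they say whether the 3 sets came from separate cultures. The p-values therefore measure the spread between these libraries only.

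Plant HEN1 is a methyltransferase that acts on small RNA duplexes and caps the ribose at the 3′ end of either strand with a 2′-O-methyl group. Sodium periodate oxidises a 3′ end that lacks this group, and an oxidised end cannot be joined to a sequencing adapter. A miRNA hairpin is cut into a duplex of a 5p and a 3p arm, of which usually the more abundant one (the major arm) is kept in an Argonaute protein while the minor arm is lost. In normal fly cells Hen1 methylates single strands held by Argonaute2, and miRNAs held by Argonaute1 are mostly left unmethylated.

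The question set by the comparison was which miRNAs remain readable after oxidation, and in what proportions, when methylated fly RNA is a minority of the sample. Untreated libraries held 6437691, 1310473 and 6981954 miRNA counts in replicates 1, 2 and 3, and their oxidised partners held 462629, 33543 and 241054. The oxidised library of replicate 2 was thus the shallowest. Replicate 1 was sequenced on a HiSeq2500 from a mixture with 25 µg of mouse RNA, and replicates 2 and 3 on a HiSeq2000 from 50 µg of total RNA. Mouse entries of the mir-290 to mir-295 cluster, which marks embryonic stem cells, held 72.3% to 73.2% of mouse counts in untreated libraries, and those of other mouse cell types held 1.57% to 1.88%. On the fly side, the 32 arms of other cell types summed to 0.0285% to 0.0616% of fly counts in untreated libraries and to 0.0421% to 0.0556% in oxidised ones, with 5 of them at 0 in all 6 libraries.

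Oxidation turned libraries of mostly mouse counts into libraries of mostly fly counts. Fly entries made up 3.91%, 8.85% and 10.4% of the counts in untreated replicates 1, 2 and 3. In the oxidised partners they made up 87.3%, 87.2% and 87.3%. The widest 95% Wilson interval among these 6 shares was 86.9% to 87.6%, in oxidised replicate 2, and it covers counting error only. The untreated libraries differed more among themselves than the oxidised ones did, and the groups were far apart. On the log2 scale, the ratio of fly to mouse counts rose by 7.40, 6.14 and 5.90 within the 3 pairs, the first of these being the HiSeq2500 set. The mean rise was 6.48 ± 0.81 (SD, n = 3), or 89.2-fold, with an exact two-sided permutation p of 0.1, the smallest that 3 against 3 libraries allow. A sign-flip test within the 3 pairs gave an exact p of 0.25, the smallest that 3 pairs allow.

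A single mouse entry, mmu-mir-184-3p, set most of what was left of the mouse counts. It had 23284, 10462 and 63527 counts in the untreated libraries, which was 0.376%, 0.876% and 1.02% of mouse counts. In the oxidised libraries it had 43026, 3728 and 26438 counts, which was 73.1%, 87.1% and 86.6% of mouse counts. Every oxidised library thus took most of its mouse counts from this entry, and no untreated library took much more than 1 percent. Set against fly counts the entry moved far less: it equalled 9.02% ± 0.235 of the fly counts in untreated and 12.0% ± 1.15 in oxidised libraries (SD, n = 3).

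In untreated mixtures the level of mmu-mir-184-3p fell along with the fly RNA over the first ratios and levelled off beyond. It averaged 8.38% of the other mouse counts at 1:1, 0.762% at 1:10, 0.0859% at 1:100 and 0.0107% at 1:1000. It averaged 0.00306% at 1:10000 and 0.00407% at 1:100000. The fly entry dme-mir-184-3p held 0.0223%, 0.0319% and 0.0256% of fly counts in untreated libraries at 1:10, while its partner arm dme-mir-184-5p held 0.395%, 0.285% and 0.414%. miR-184 acts in the fly germline and early embryo, and has a relative of the same name in mouse. Mature sequences of both species were not used here, so which species the reads of this entry came from was not tested. With the entry left out, the log2 rise in fly over mouse counts was 9.05 ± 0.25 (530-fold), and with its counts added to the fly side it was 9.09 ± 0.24. Fly counts and this entry together made up 96.6%, 98.4% and 98.3% of the oxidised libraries.

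**Figure D1:**
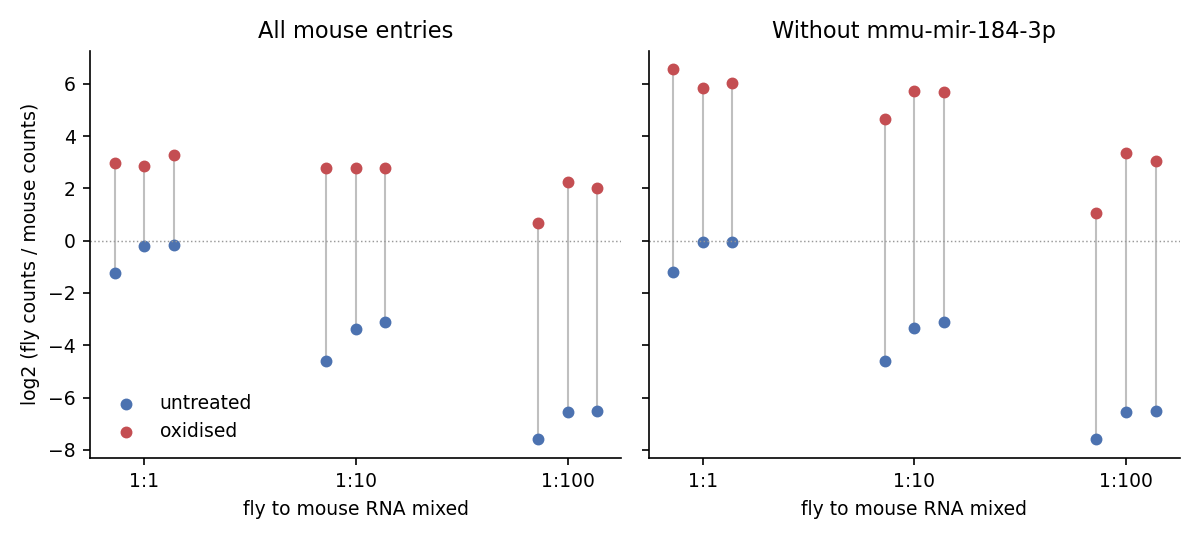
Fly miRNA counts over mouse miRNA counts of the library as a log2 ratio (y) in untreated (blue) and oxidised (red) libraries at 3 mixing ratios (x), with lines joining libraries of one replicate, shown for all mouse entries and without mmu-mir-184-3p. At 1:10 all 3 oxidised libraries sit at 2.77 to 2.79 with all entries, and at 4.67 to 5.73 without that entry.

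The rise at 1:10 lay between those at the neighbouring ratios. It was 3.59 ± 0.58 at 1:1 and 8.54 ± 0.26 at 1:100 on the log2 scale, so the rise at 1:10 was larger by 2.89 than at 1:1 and smaller by 2.06 than at 1:100 (exact permutation p of 0.1 for each, also after adjustment over both comparisons, n = 3). The second of these differences depended on mmu-mir-184-3p. Without it, the rise at 1:10 was larger by 2.47 than at 1:1 (exact permutation p = 0.1) and smaller by 0.33 than at 1:100 (exact permutation p = 0.5).

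Single fly arms were first measured relative to mouse miRNAs, in a fit that scaled each library to its mouse counts with trimmed-mean (TMM) factors. Of 372 fly arms, 117 passed the filter on low counts, and 116 of them were higher after oxidation (99.1%) and 0 were lower, also at an unadjusted p below 0.05 and by DESeq2. The share of arms called is close to complete, so a call by itself distinguishes no arm. The filter weighed each count against the whole library, of which fly entries made up far more after oxidation. dme-mir-124-3p and dme-mir-92a-3p, which ended at or near 0 in oxidised libraries, did not pass it. Without the filter 216 of 370 arms were higher and 0 lower. The median change of the 117 arms was 9.18 on the log2 scale. The 1 arm not called was dme-mir-1013-3p, from a short intron, with 8, 4 and 22 counts in untreated and 1, 0 and 0 in oxidised libraries. The size of the change depended on the scaling: with mouse totals without TMM factors the fly median was 6.90 and the median of the mouse entries moved from -0.41 to -2.39.

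The arms nevertheless differed widely in how far they rose relative to mouse. The largest rises among arms with a mean of 50 or more counts were those of the 5p arms of mir-276a and mir-276b, which share identical counts, at 10.96 ± 1.36 (SE). dme-mir-14-5p, from a hairpin whose miRNA suppresses cell death and regulates fat metabolism, rose by 10.96 ± 1.63. At the other end, dme-mir-9c-3p rose by 3.10 ± 1.04 (adjusted p = 0.0259) and dme-mir-1008-3p by 4.49 ± 0.77, or by 1.12 and not called with total counts times TMM factors (adjusted p = 0.25). The call of dme-mir-9c-3p rested on the scaling and on single sets: the change was 0.61 without TMM factors (adjusted p = 0.56), 3.13 without replicate 2 (adjusted p = 0.13) and 0.85 without replicate 3 (adjusted p = 0.88). With total counts as the scale it was -0.45.

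Per 1000 mouse counts, dme-bantam-3p stood at 13.0, 42.9 and 43.5 in untreated and at 788, 877 and 740 in oxidised libraries. dme-mir-9c-3p stood at 0.0540, 0.183 and 0.321 against 0.0850, 0 and 0.622. For the first the groups were far apart, while for the second they overlapped on this scale, which includes mmu-mir-184-3p in the denominator.

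**Figure D2:**
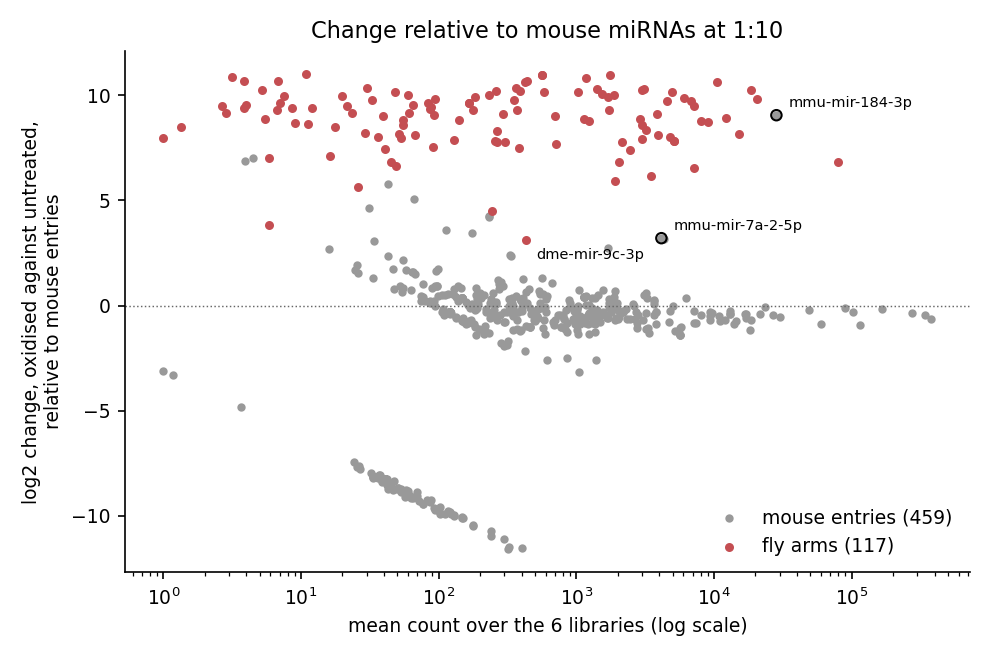
Log2 change from untreated to oxidised relative to mouse miRNAs (y) against the mean count over the 6 libraries at 1:10 (x, log scale) for 117 fly arms (red) and 459 mouse entries (grey), 1 point per entry. Fly arms lie near 9, most mouse entries near 0, mmu-mir-184-3p at 9.06, and the grey points at the bottom are mostly entries at 0 in every oxidised library, whose fitted values depend on the prior count.

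Among the mouse entries, 459 were tested, and 11 were higher (2.4%) and 1 was lower (0.218%). The entry mmu-mir-184-3p rose by 9.06 ± 1.26 on the log2 scale (532.7-fold). Next among entries with a mean of 50 or more counts came mmu-mir-6236-5p at 5.07 ± 1.31 (2.61 with total counts times TMM factors, adjusted p = 0.075), and both copies of let-7a, a miRNA of differentiated cells, at 4.24 ± 1.51 and 4.22 ± 1.50. Both copies of mir-7a, which is conserved between fly and mouse, rose by 3.21 ± 0.47 and 3.16 ± 0.47. mmu-mir-33-5p, of the lipid-regulating mir-33 family, rose by 2.76 ± 0.97.

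The counts behind several of these entries were low. The copy mmu-let-7a-1-5p had 556.5, 131.5 and 677 counts in untreated libraries and 6.5, 2 and 17.5 in oxidised ones. The copy mmu-mir-7a-1-5p had 10706, 3073 and 11700 against 336, 14.5 and 104. Both had fewer counts in the oxidised libraries, which were also shallower, and rose only relative to the other mouse entries. Both copies of let-7a have nearly identical counts and are not independent. Their calls were lost without replicate 1 (adjusted p = 0.070 and 0.073) and without replicate 3 (adjusted p = 0.57 and 0.59). That of mmu-mir-33-5p was lost without replicate 2 (adjusted p = 0.18) or replicate 3 (adjusted p = 0.22). Only 5 mouse entries were higher without replicate 3, and only 5 without TMM factors, where neither copy of let-7a, neither copy of mir-7a nor mmu-mir-33-5p was called. The 4 others called had a mean below 50 counts: mmu-mir-146a-5p, mmu-mir-5126-3p and both arms of mmu-mir-6240.

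The 1 mouse entry called lower was mmu-mir-128-1-3p, with 727.5, 94 and 968.5 counts in untreated and 0 in all 3 oxidised libraries. A count of 0 allowed up to 0.00510%, 0.0701% and 0.00982% of mouse counts in the oxidised replicates, against 0.0118%, 0.00787% and 0.0155% measured in the untreated ones, so no fold is given. It was not called by DESeq2, with the pair as a block, without replicate 1 or without replicate 3. In all, 66 tested mouse entries were at 0 in every oxidised library, and for none of them did the mean of that limit over the 3 libraries, scaled with TMM factors, lie below the untreated mean. The median change of all mouse entries was -0.41 as fitted and -0.14 with those entries at their limit.

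The mouse lists are given beside the 11 higher (2.4%) and 1 lower (0.218%) of all 459 tested mouse entries. Of 10 tested arms of the mouse let-7 family the 2 copies named above were higher and 0 were lower. The median of these 10 arms was 0.81, against -0.41 for all mouse entries. Of 14 tested arms of the mir-290 to mir-295 cluster 0 were called, with a median change of -0.39, and in the oxidised libraries, where mmu-mir-184-3p held most mouse counts, the cluster held between 9.10% and 18.0%. Its most abundant arms mmu-mir-294-3p, mmu-mir-295-3p and mmu-mir-291a-3p had changes of -0.64 ± 0.72, -0.46 ± 0.48 and -0.37 ± 0.59. Without TMM factors all 3 were called lower, at -2.67, -2.63 and -2.52. That scale is the mouse total with mmu-mir-184-3p in it, and on it the median of all mouse entries was -2.39. The 3 arms thus lay near the other mouse entries on both scales. Of the mir-17-92 cluster and its paralogs 0 of 30 tested arms were called (median -0.71), and of the mir-302 and mir-367 cluster 0 of 5 (median -0.29). Of 11 tested arms of other mouse cell types 0 were called (median -1.07), and the list held 0.0917% to 0.468% of mouse counts after oxidation. Among 51 tested mouse arms with fly relatives 6 were higher and 0 lower (median -0.46). Both copies of let-7a and of mir-7a were counted among the 6, so these are not 6 separate miRNAs. Outside mmu-mir-184-3p, oxidised replicates 1, 2 and 3 held only 15815, 552 and 4098 mouse counts. With so few counts, 0 calls in a list do not show that its arms were unchanged.

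The second measure was each arm's share of the fly counts, which does not depend on the mouse entries. After oxidation 40 of 105 tested arms had a higher share (38.1%) and 27 a lower one (25.7%), so the fly profile was rearranged as well as enriched. These 105 arms held at least 99.9% of fly counts in every library. The ranges of the 3 oxidised and 3 untreated libraries did not overlap for 42 arms with a higher share (40.0%) and 29 with a lower one (27.6%). Ranks were largely kept, with a Spearman rho across the 105 arms of 0.897, 0.909 and 0.917 between partners, against 0.968 to 0.991 between untreated libraries of different sets.

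Shares sum to 100%, and the loss of 1 abundant arm, dme-bantam-3p, from the total raises all others. The median change was 0.42 on the log2 scale. With TMM factors on the fly totals it was -0.05, with 27 arms higher and 35 lower. With dme-bantam-3p left out of the totals it was -0.08, with 27 higher and 36 lower. All 27 arms called lower by share were also lower on both of these scales, while 13 of the 40 higher ones were no longer called. With the pair as a block in the fit 51 arms were higher and 36 lower, among them all 67 of the unblocked fit. Without replicate 3 the counts were 27 and 16 of 97 tested, and in a fit over all 36 libraries they were 20 and 14 of 88.

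**Figure D3:**
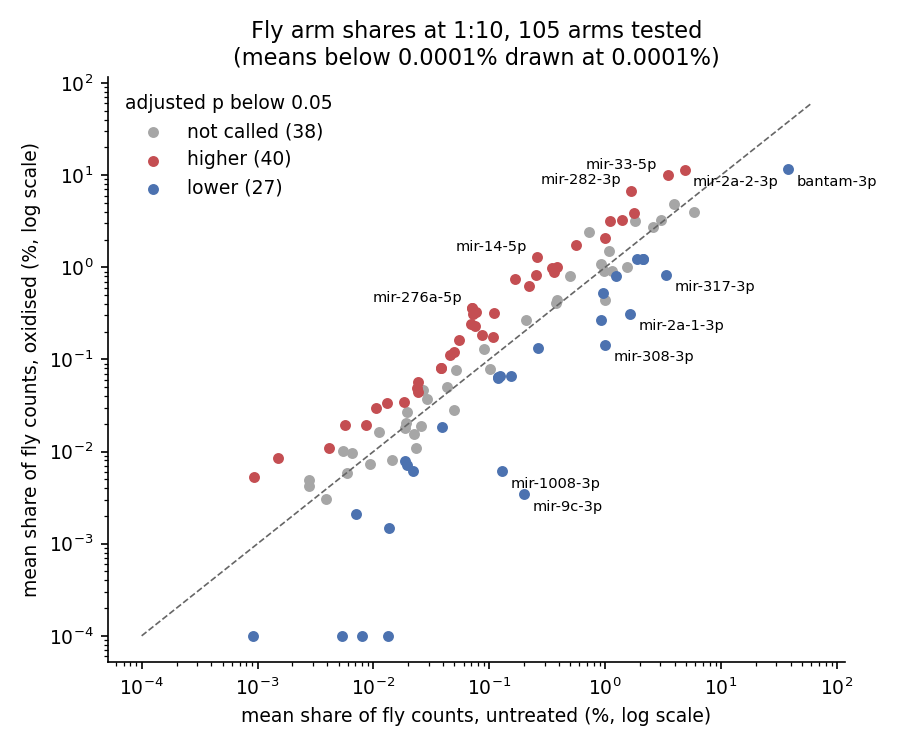
Mean share of fly counts in 3 oxidised (y) against 3 untreated libraries (x) at 1:10, in percent on log scales, for 105 fly arms; red arms were called higher, blue arms lower and grey arms were not called, and the dashed line marks equal shares. The most abundant arm, bantam-3p, lies below the line, and mir-9c-3p and mir-1008-3p lie farthest below it among arms above 0.1% in untreated libraries.

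The most abundant arm fell to the level of the next ones. dme-bantam-3p, the guide arm of a miRNA that promotes growth and blocks apoptosis, held 32.0%, 44.2% and 37.6% of fly counts in untreated libraries. It held 11.5%, 12.8% and 10.7% in oxidised ones, and all 3 lay below every untreated library. The share fell by 1.70 ± 0.15 on the log2 scale (SE, adjusted p = 1.16e-07), or 3.25-fold. Its partner dme-bantam-5p moved the other way, from 1.38%, 2.05% and 1.88% to 2.88%, 4.86% and 3.89%, a rise of 1.13 ± 0.31 (adjusted p = 0.0049). That rise was not called without replicate 3 (adjusted p = 0.073) or with TMM factors (0.62, adjusted p = 0.14).

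In oxidised libraries 2 other arms stood beside it. dme-mir-2a-2-3p, of the K-box family that represses pro-apoptotic genes, went from 4.54%, 5.20% and 4.82% to 11.5%, 13.1% and 9.86%. dme-mir-33-5p, whose hairpin lies in an intron of the SREBP gene and regulates lipid metabolism, went from 4.76%, 2.31% and 3.30% to 12.1%, 7.89% and 10.3%. For neither arm did the groups overlap, and the largest arm was dme-mir-33-5p in oxidised replicate 1, dme-mir-2a-2-3p in replicate 2 and dme-bantam-3p in replicate 3. The rises were 1.24 ± 0.19 (adjusted p = 3.55e-05) and 1.55 ± 0.29 (adjusted p = 0.000279) on the log2 scale, or 2.37-fold and 2.92-fold. The other copy of mir-2a fell in its 3p arm. Summed, the 3p arms of both copies averaged 6.50% before and 11.8% after oxidation, a smaller rise than that of dme-mir-2a-2-3p alone.

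The other abundant arms divided. dme-mir-317-3p fell from 3.90%, 2.87% and 3.24% to 1.12%, 0.748% and 0.620% (4.01-fold, with an SE of 0.27 on the log2 scale, adjusted p = 1.11e-05). The 2 copies of mir-13b, another K-box miRNA, have nearly identical counts in these files and are not independent. Summed, their 3p arms fell from 4.51%, 4.32% and 3.96% to 2.69%, 2.51% and 2.23% (-0.78 ± 0.17 for each copy, adjusted p = 0.000816). dme-mir-305-5p, which regulates intestinal stem cells in the fly, fell by 0.60 on the log2 scale (SE 0.22, adjusted p = 0.025), a call lost without replicate 1 or replicate 3.

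Several abundant arms did not pass the test. dme-mir-282-5p had shares of 7.02%, 4.42% and 5.93% against 3.62%, 3.72% and 4.64%, with overlapping groups (-0.54 ± 0.29, adjusted p = 0.118). It was called with the pair as a block (-0.51, adjusted p = 0.0366) and with TMM factors (-1.01, adjusted p = 0.0024). For dme-mir-8-3p, a member of the mir-200 family that supports growth through insulin signalling, the change was 0.31 ± 0.23 by share, 0.32 with the block (adjusted p = 0.0366) and -0.15 with TMM factors. The changes of dme-mir-34-5p, a miRNA tied to ageing in the fly brain, and dme-mir-11-3p, a K-box miRNA, were 0.12 ± 0.19 and 0.11 ± 0.23 by share, and turned below 0 with TMM factors and with dme-bantam-3p left out.

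**Figure D4:**
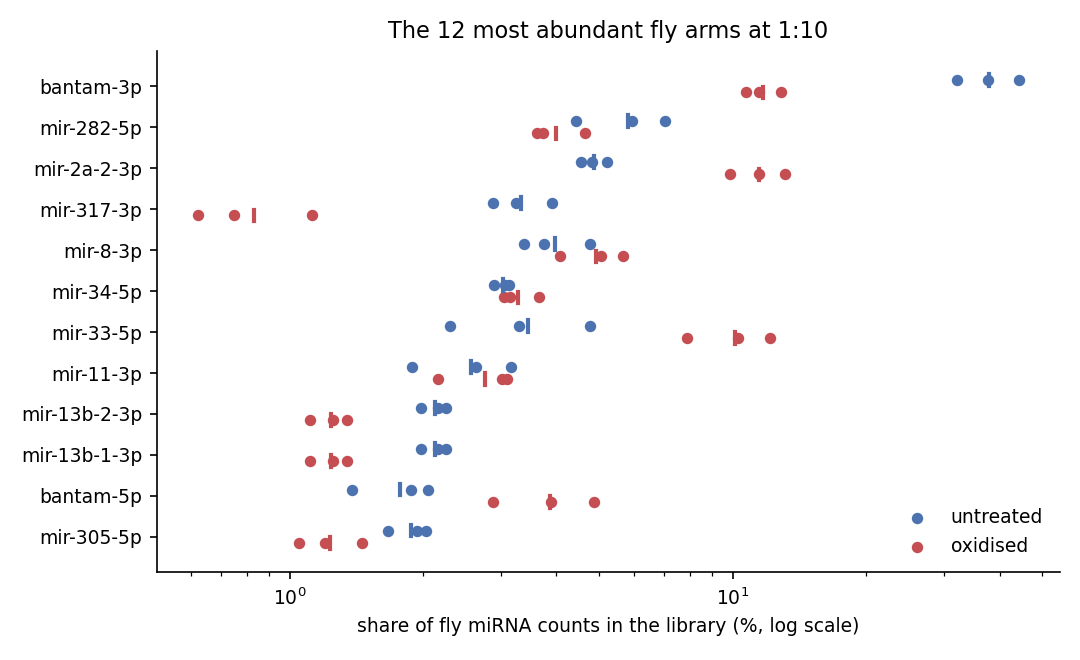
Share of fly counts (x, percent, log scale) of the 12 arms most abundant in untreated 1:1 libraries, in each untreated (blue) and oxidised (red) library at 1:10; short bars mark the means of 3 libraries. The oxidised points of bantam-3p and mir-317-3p lie left of all untreated ones, and those of mir-2a-2-3p, mir-33-5p and bantam-5p lie right of them.

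Among arms with a mean of 50 or more counts, the largest rises in share were mostly those of scarce arms. The 5p arms of mir-276a and mir-276b, a family tied to memory, had identical counts, and summed they went from 0.163%, 0.128% and 0.137% to 0.879%, 0.591% and 0.713% (2.36 ± 0.24 each, 5.12-fold, adjusted p = 6.05e-07). dme-mir-14-5p went from 0.240%, 0.291% and 0.247% to 1.03%, 1.21% and 1.60% (2.30 ± 0.33, 4.94-fold). dme-mir-282-3p went from 1.87%, 1.65% and 1.52% to 7.17%, 6.43% and 6.79% (2.01 ± 0.23, 4.04-fold), and so became one of the most abundant arms.

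Further arms followed in size. The rises were 2.15 ± 0.23 for dme-mir-988-5p, 2.12 ± 0.36 for dme-mir-996-5p, 2.07 ± 0.72 for dme-mir-306-3p and 1.80 ± 0.35 for dme-mir-305-3p. In none of them did the oxidised libraries overlap the untreated ones. dme-mir-306-3p differed between sets, at 0.0286% in untreated replicate 1 against 0.106% and 0.0978% in the others, and its call was lost without replicate 2 (adjusted p = 0.09), without replicate 3 (adjusted p = 0.18) and with TMM factors (adjusted p = 0.088).

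Among arms with a mean of 50 or more counts, the largest falls left few counts. dme-mir-9c-3p, the minor arm of a hairpin of the mir-9 family, held 0.133%, 0.189% and 0.278% of fly counts in untreated libraries, from 334, 219 and 2009 counts. It had 5, 0 and 19 counts in the oxidised libraries, or 0.00124%, 0 and 0.00903% of fly counts. In oxidised replicate 2 a count of 0 allowed up to 0.0103%, so even there the share was below every untreated value. The share fell by 5.58 on the log2 scale (SE 0.77, adjusted p = 1.47e-05), with the fitted size resting on those few counts.

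dme-mir-1008-3p, a mirtron arm, that is one from a short intron spliced out without Drosha, fell from 0.129%, 0.125% and 0.132% to 0.00322%, 0.00342% and 0.0119%. The oxidised values rest on 13, 1 and 25 counts, and the share fell by 4.26 on the log2 scale as fitted (SE 0.49, adjusted p = 2.42e-06). dme-mir-308-3p, a K-box miRNA, fell from 1.43%, 0.715% and 0.844% to 0.170%, 0.130% and 0.133% (-2.78 ± 0.47, 6.85-fold). For both, every oxidised library lay below every untreated one.

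The remaining large falls were those of dme-mir-2a-1-3p (-2.40 ± 0.17, adjusted p = 1.51e-08), dme-mir-79-3p of the mir-9 cluster (-1.81 ± 0.34) and dme-mir-970-3p (-1.25 ± 0.30). The call of dme-mir-970-3p was lost without replicate 3 (adjusted p = 0.057). The 2 copies of mir-2a thus moved in opposite directions in these files. Their 3p arms, summed, went from 6.12%, 6.75% and 6.63% to 11.8%, 13.5% and 10.1%. How reads that match both copies were shared is not stated in the sources.

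Among the arms called lower, 3 with conserved relatives in mouse ended at or near 0. dme-mir-124-3p, a neuronal miRNA and one of the markers of other cell types, had 68, 6 and 57 counts in untreated and 1, 0 and 0 in oxidised libraries. dme-mir-92a-3p had 30, 7 and 42 counts in untreated and 0 in all oxidised libraries. dme-mir-9a-5p, which acts in sense organ precursors, had only 3, 1 and 5 counts in untreated and 0 in all oxidised libraries. For this arm the limit that a count of 0 allows did not lie below the untreated level on average, so that although the fit called it lower no fall can be read from it. dme-mir-92a-3p and dme-mir-9a-5p were picked after their values were seen. The species of origin of their reads was not tested.

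The members of each family are given beside the background of 38.1% higher and 25.7% lower over all 105 arms. Of 16 tested arms of the K-box group (mir-2, mir-6, mir-11, mir-13 and mir-308) 6 were higher and 7 lower, with a median of -0.30 against 0.42 over all 105 arms. The group held between 17.0% and 18.7% of fly counts before and between 24.0% and 27.2% after oxidation, but with dme-bantam-3p left out of the totals it averaged 28.6% before and 28.9% after (exact permutation p = 0.9, n = 3). Within it dme-mir-2a-2-5p rose from 1.40% to 3.23% on average and dme-mir-2b-2-5p from 1.09% to 3.17%. Of 4 arms of bantam and mir-14, both linked to cell survival, 2 were higher and 1 lower, with a median of 0.64. Their sum lay between 34.1% and 46.8% before and between 15.8% and 19.3% after oxidation, while the 3 arms other than dme-bantam-3p held 3.93% and 6.31% of the remaining fly counts on average. Relative to mouse, all tested arms of the fly lists were higher except 1 mirtron arm, dme-mir-1013-3p.

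The metabolic group of mir-33, mir-8 and mir-278 had 2 of 5 tested arms higher and 0 lower, and held between 7.41% and 11.6% of fly counts before and between 15.6% and 21.5% after oxidation. With dme-bantam-3p left out of the totals the group averaged 14.6% and 20.7%, and the groups of libraries still did not overlap (exact permutation p = 0.1, n = 3). The arms higher were dme-mir-33-5p and dme-mir-8-5p (0.564% to 1.74% on average, 1.62 ± 0.24). dme-mir-33-3p changed by 0.49 ± 0.25, which did not pass without the block and passed with it (0.49, adjusted p = 0.0099), and it had no rise once dme-bantam-3p was left out of the totals (-0.01). With the block 4 of the 5 arms were higher and 1 lower, against 51 and 36 of all 105 arms. The additions were dme-mir-8-3p, dme-mir-33-3p and dme-mir-278-3p, the last of them lower (-0.81 ± 0.21, adjusted p = 0.00122). The median of the group was 0.49 without the block.

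The clusters of mir-277, mir-275 and mir-12, each of neighbouring hairpins, had median changes near the 0.42 of all arms. In the cluster of mir-277, mir-34 and mir-317, which a Drosophila gene table for another assembly places within 20 kb on 1 chromosome, 2 of 6 arms were higher and 2 lower, with a median of 0.46. Both arms of mir-317 fell, with dme-mir-317-5p at -0.90 ± 0.27, while dme-mir-34-3p rose by 1.52 ± 0.48, a call lost without replicate 2, without replicate 3, with TMM factors (0.98, adjusted p = 0.11) and with dme-bantam-3p left out of the totals (0.97). dme-mir-277-3p, which regulates the breakdown of branched-chain amino acids, had 2.89%, 1.25% and 1.32% in untreated and 4.83%, 2.52% and 2.20% in oxidised libraries. Replicate 1 was high in both, the groups overlapped, and the change of 0.81 ± 0.45 was not called (adjusted p = 0.124). It was called with the pair as a block (0.83 ± 0.17, adjusted p = 0.00012) and without replicate 1 (0.87).

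In the mir-275 and mir-305 cluster the major arms fell and the minor arms rose, with 2 of 4 arms in each direction and a median of 0.29. dme-mir-275-3p fell by 0.62 on the log2 scale (SE 0.21, adjusted p = 0.016), a call lost without replicate 3. In the mir-12, mir-283 and mir-304 cluster 2 of 6 arms were higher and 1 lower, with a median of 0.55. dme-mir-12-5p rose by 1.09 ± 0.21, dme-mir-304-5p fell by 0.88 (SE 0.28, a call lost without replicate 3), and dme-mir-283-5p changed by 0.69 ± 0.31, a change called with the block (adjusted p = 0.0012).

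The mir-9 family with mir-306 and mir-79 had 2 of 9 tested arms higher and 5 lower, with a median of -1.20. The 5 include dme-mir-9a-5p, from whose few counts no fall can be read. Changes of dme-mir-306-5p and dme-mir-9c-5p were 0.24 ± 0.44 and 0.20 ± 0.34 by share, were not called, and were below 0 with TMM factors. In the mir-279, mir-286 and mir-996 family, which shares a seed and acts in sensory neuron formation, 2 of 4 arms were higher and 0 lower, with a median of 0.39. dme-mir-279-3p changed by -0.08 ± 0.28. dme-mir-996-3p changed by -1.17 ± 0.53 (adjusted p = 0.0632), and with the block the change was called (-1.19 ± 0.19, adjusted p = 3.95e-06). Of the 3 tested arms of mir-276a and mir-276b both 5p arms were higher (median of the 3 arms 2.36), and dme-mir-276a-3p changed by -0.34 ± 0.24, or by -0.81 (adjusted p = 0.0024) with TMM factors.

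Mirtrons, which need no Drosha, had 2 of 8 tested arms higher and 3 lower, with a median of 0.44, close to the 0.42 of all arms. The change was 0.37 ± 0.26 for dme-mir-1003-3p and 0.50 ± 0.22 for dme-mir-1006-3p (adjusted p = 0.0579), neither of them called, and both were below 0 with dme-bantam-3p left out of the totals. With the pair as a block dme-mir-1006-3p was called (0.46, adjusted p = 0.0323), and 4 of the 8 mirtron arms were higher. Over all 105 arms the block gave 51 higher and 36 lower, so the mirtrons did not stand out. The 41 arms with mouse relatives had 5 higher and 6 lower of 20 tested, with a median of 0.21, and 9 higher and 7 lower with the block. Of the 3 tested arms of other fly cell types, dme-mir-5-3p of the early embryo was higher (5, 1 and 12 counts against 25, 3 and 19), dme-mir-124-3p was lower and dme-mir-263a-5p had 0.42 ± 0.35. No arm of the let-7 complex (6 listed) or of testis-enriched clusters (19 listed) had enough counts to be tested, and each of these lists held at most 0.00173% of fly counts in any of the 6 libraries.

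The clearest regularity lay in the 2 arms of a hairpin. For each of 149 fly hairpins with both arms listed, the arm with the higher mean share in untreated 1:1 libraries was taken as the major arm. These 1:1 libraries were not among those compared at 1:10. The filter on low counts kept 37 of 149 minor and 65 of 149 major arms. A scarce arm could pass it through the libraries of 1 group alone, so minor arms scarce before oxidation could enter by rising. The counts of calls below may therefore favour minor arms that rose. Of 37 tested minor arms 24 were higher and 4 lower, with a median change of 1.19. Of 65 tested major arms 16 were higher and 21 lower, with a median of 0.11. dme-mir-276a-5p was counted as a minor and dme-mir-276b-5p as a major arm, though their counts are identical. The 4 minor arms that fell were dme-mir-9c-3p, dme-mir-9b-5p (-1.90 ± 0.34), dme-mir-317-5p and dme-mir-2b-2-3p (-0.90 ± 0.37). Leaving out 1 set ended the call of dme-mir-2b-2-3p (replicate 2 or 3) and of dme-mir-317-5p (replicate 2).

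Summed over hairpins, minor arms held 9.03%, 8.85% and 9.46% of fly counts in untreated libraries and 22.5%, 24.2% and 25.8% in oxidised ones. The groups did not overlap, and the mean gain was 15.0 percentage points (exact permutation p = 0.1, the smallest possible, n = 3). Within pairs, the sign-flip test gave an exact p of 0.25. Without both bantam arms the gain was 11.8 points. Among mouse hairpins other than mir-184 the minor-arm share was 12.6%, 10.8% and 13.2% before and 10.2%, 11.6% and 9.02% after oxidation, with overlapping groups (exact permutation p = 0.2, n = 3). As a log2 ratio of minor to major counts, the change was 1.67 ± 0.10 for fly and -0.28 ± 0.37 for mouse hairpins, a difference of 1.95 (exact permutation p = 0.1, n = 3, over 149 fly and 614 mouse hairpins). That test treated the fly and mouse changes as independent, though both came from the same pairs of libraries. The mouse value rests on the few mouse counts left after oxidation.

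Both arms passed the filter in 36 hairpins. For the same reason, hairpins whose scarce minor arm rose may be over-represented among these 36. The minor arm gained on the major arm in 25 of them and lost in 11, with a median difference of 0.88 on the log2 scale. In 20 hairpins (55.6%) the minor arm's percent of its hairpin was higher in all oxidised than in all untreated libraries, and in 5 hairpins (13.9%) it was lower in all. In 5 hairpins the mean crossed from below to above 50%. For mir-308 the minor arm went from 13.3%, 25.6% and 25.9% to 82.8%, 84.4% and 88.0%. For mir-2a-1 it went from 11.6%, 12.2% and 11.6% to 60.3%, 65.3% and 72.7%. Taken as 1 hairpin, both copies of mir-2a went only from 22.3%, 16.7% and 20.8% to 22.9%, 22.6% and 28.9%, without crossing 50%, and the part of shared reads in this was not tested. For mir-282 it went from 21.1%, 27.2% and 20.4% to 66.5%, 63.3% and 59.4%.

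The other crossings were in mir-14, from a mean of 41.7% to 75.4%, and in mir-999, a hairpin of few counts, from 27.5% to 76.4%. In bantam the minor arm rose from 4.44% on average to 24.7%, without passing the major one. The 5 hairpins in which the minor arm lost in every library were mir-9c, mir-2b-2, mir-190, mir-33 and mir-1012. In mir-9c it went from 31.0%, 34.7% and 35.5% to 0.367%, 0 and 1.68%. In mir-33 it went from 21.6%, 26.6% and 25.0% to 12.8%, 13.3% and 13.1%, with dme-mir-33-5p, the major arm, rising by 1.55 and dme-mir-33-3p at 0.49 in share.

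**Figure D5:**
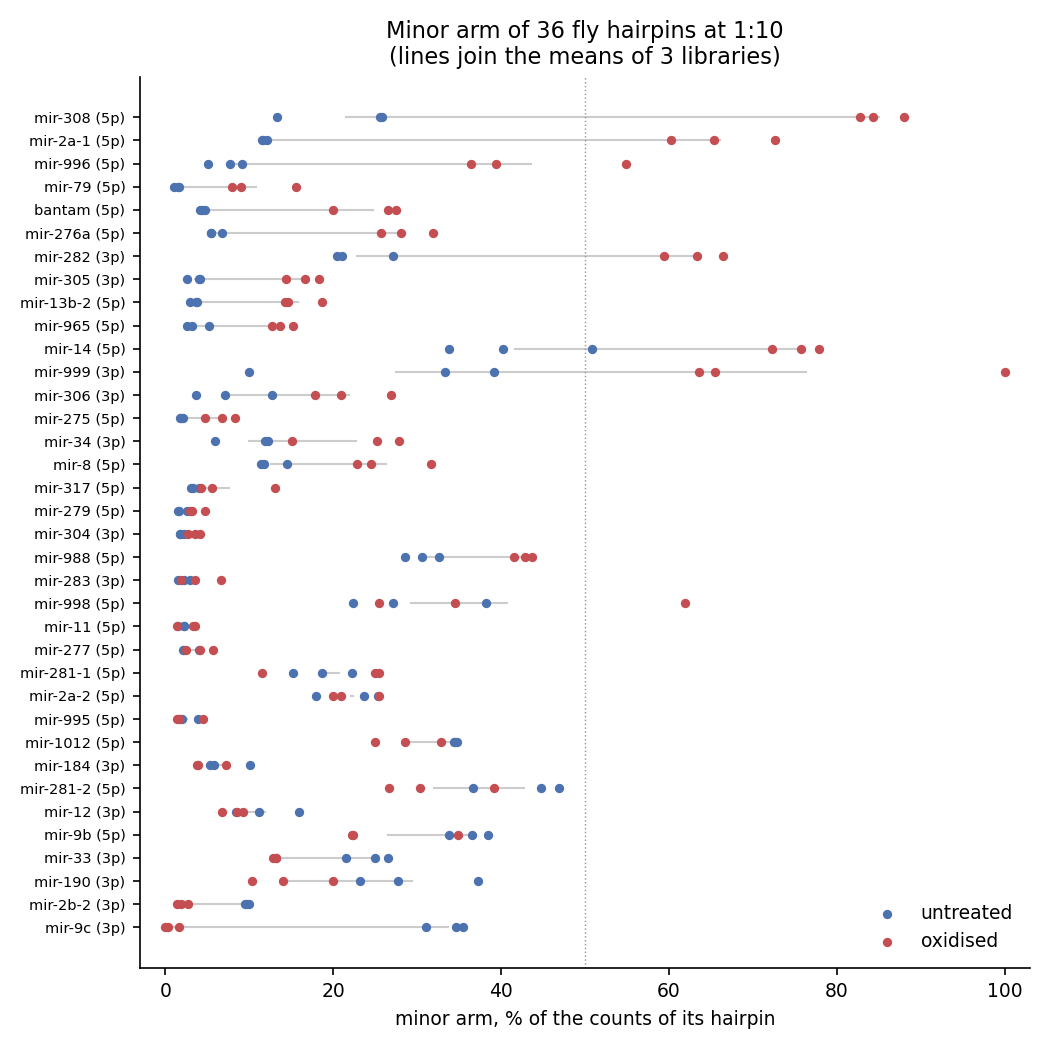
Counts of the minor arm as a percent of its hairpin's counts (x) in each untreated (blue) and oxidised (red) library at 1:10 for 36 fly hairpins (y, with the minor arm in brackets), ordered by the log2 difference between arms; lines join the group means and the dotted line marks 50%. The minor arms of mir-308 and mir-2a-1 moved past 50%, though both copies of mir-2a together averaged 19.9% and 24.8%, and that of mir-9c dropped to near 0.

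The arms also divided by side. Of 47 tested 5p arms 28 were higher and 6 lower, and of 58 tested 3p arms 12 were higher and 21 lower, with medians of 1.10 and -0.14. The 5p arms together went from 26.9%, 22.3% and 25.6% of fly counts to 40.5%, 42.7% and 46.1%, with no overlap, and with dme-bantam-3p left out of the totals from a mean of 40.2% to 48.8%, also with no overlap. Side and role were not independent, since 23 of the 37 tested minor arms were 5p arms. Among major arms alone, 10 of 24 5p arms were higher and 4 lower, and 6 of 41 3p arms were higher and 17 lower. Among minor arms alone, 18 of 23 5p arms and 6 of 14 3p arms were higher.

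Fly counts were spread over more arms after oxidation, and this rested on dme-bantam-3p. The most abundant arm held 32.0% to 44.2% of fly counts in untreated and 10.7% to 13.1% in oxidised libraries. It took 5, 3 and 4 arms to reach 50% of fly counts before oxidation and 6, 6 and 7 after it, and 25, 24 and 26 arms against 28, 30 and 30 to reach 90% (exact permutation p = 0.1 for each, n = 3). With dme-bantam-3p left out, 9.33 arms on average reached 50% before and 7 after oxidation, and 29.7 reached 90% in both groups (exact permutation p = 1). Fly arms were also counted at an equal depth of 33536 counts of both species together. At that depth 40.9, 52.3 and 55.4 fly arms were expected to have 3 or more counts in untreated libraries. In oxidised ones the numbers were 87.3, 86.0 and 88.4. The gain was 37.6 arms (exact permutation p = 0.1, n = 3). Fly entries made up far more of that depth after oxidation, so the gain includes the enrichment itself. An equal number of fly counts was not tested. At the depths as sequenced the mean was lower after oxidation, as it was in 2 of 3 pairs, with 129, 111 and 166 arms in untreated and 135, 86 and 122 in oxidised libraries (exact permutation p = 0.5), the untreated libraries holding many times more counts.

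Some arms differed between sets more than between treatments. dme-mir-252-5p held 0.110%, 1.06% and 0.989% in untreated and 0.327%, 3.17% and 3.70% in oxidised libraries, so that replicate 1 was low in both treatments. Its change of 1.73 ± 1.18 was not called (adjusted p = 0.202). With the pair as a block it was 1.69 ± 0.16 (adjusted p = 7.7e-10), and without replicate 1 it was 1.75. This arm was picked after its values were seen. In all, the block added 11 arms higher and 9 lower to those called, and 0 calls were lost.

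The change in fly shares at 1:10 was also set against the changes at 1:1 and 1:100. In each interaction test 0 of 105 arms were called in either direction (0.0%) with edgeR. At an unadjusted p below 0.05 there were 4 arms against 1:1, all with a lower value at 1:10, and 1 against 1:100. The precision was limited, with a median SE of the difference of 0.44 against 1:1 and 0.49 against 1:100 on the log2 scale. Differences above 1 on the log2 scale in either direction were estimated for 6 arms against 1:1 and 7 against 1:100, and none of these was called either. With the pair as a block 2 arms differed from 1:1, dme-mir-308-5p (-0.93 ± 0.23, adjusted p = 0.0336) and dme-mir-92a-3p, which was at 0 after oxidation. Without replicate 1 there were 3 others, dme-mir-308-3p (-1.55 ± 0.42), dme-mir-9c-3p (-1.81 ± 0.53) and dme-mir-980-3p (-1.36 ± 0.41). All 5 had a lower value at 1:10 than at 1:1.

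Side by side, the shares of the leading arms were alike at the 3 ratios. dme-bantam-3p averaged 42.8% untreated and 10.4% oxidised at 1:1, and 36.7% and 11.8% at 1:100, around the 37.9% and 11.7% at 1:10. dme-mir-33-5p averaged 2.86% and 9.33% at 1:1 and 3.34% and 11.2% at 1:100, against 3.46% and 10.1% at 1:10. dme-mir-282-3p averaged 1.48% and 6.65% at 1:1 and 1.40% and 5.79% at 1:100, against 1.68% and 6.79%. The minor-arm share of the counts of fly hairpins with both arms listed was 8.77% and 23.2% at 1:1. It was 9.11% and 24.2% at 1:10, and 9.03% and 23.5% at 1:100.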

How the data were processed

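The deposited values are expected counts (each an estimated count per hairpin arm), partly fractional and not scaled to depth. Tools named by the submitters' processing notes are HTSeq 0.6.1p1 and cutadapt 1.2.1, with builds mm10 and dm3; the aligner is not given in the sources used here. Small RNAs of 18 to 30 nt were sequenced with 4 random adapter nucleotides, per the labels' protocols. The set without a replicate number in its labels was taken as replicate 1, and its 257 unlisted entries were set to 0.

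Rounded counts were tested with edgeR 4.0.16 (R 4.3.3; quasi-likelihood, filterByExpr with minimum count 10 and total 15, Benjamini-Hochberg, adjusted p below 0.05), relative to mouse over 36 libraries and by fly share over the 18 libraries of 1:1, 1:10 and 1:100. DESeq2 1.42.0 was an alternative. On simulated data 81% of entries changed by 2 on the log2 scale were recovered relative to mouse and 100% by share. The simulated oxidised libraries had the depth of untreated ones and a known scale. These rates therefore do not give the power at the real, lower oxidised depths. SE is edgeR's, SD that between 3 libraries.

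Each mixture was split, so equal numbers pair the libraries. Deviations from group means correlated at 0.879, 0.743 and 0.801 within pairs (69 arms), each best with its own number.

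Named arms were the 12 most abundant, the 8 largest rises and falls, the extremes relative to mouse, called mouse entries and up to 3 of each list. For mouse lists other than the mir-290 to mir-295 cluster, members are not named beyond those called. Members and lists were chosen with earlier results of these data known. Mature sequences were not used here.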

Additional observations from a re-analysis of the deposited data

Results flagged for a closer look

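The share of dme-mir-1006-3p, a mirtron arm, rose in every pair at 1:10, from 0.0819%, 0.0888% and 0.0982% to 0.104%, 0.157% and 0.126%, and fell in every pair at 1:100, from a mean of 0.0976% to 0.0770%. The log2 changes differed by 0.85 between the ratios. This difference was singled out only because the pairs moved in opposite directions, a criterion that is itself untested; in the interaction test over 105 arms it was not called.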

How the results depend on the processing

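The rise of fly over mouse counts kept its direction under every alternative run, between 6.02 and 6.77 on the log2 scale with 1 set left out, and the fly arms called higher relative to mouse numbered 216 of 370 without a filter on low counts. Mouse calls moved most, though with mmu-mir-184-3p left out of the mouse totals and TMM factors they stayed at 11 higher and 1 lower. Entries higher numbered 3 with total counts times TMM factors, 5 without TMM factors and 5 to 10 with 1 set left out. Entries lower numbered 236 and 185 on those 2 scales, 6 without a filter, 3 with DESeq2, and 1 to 3 with 1 set left out, and the mouse median was -2.63 without replicate 1. For shares, a fit over all 36 libraries called 20 higher and 14 lower, and leaving out 1 set called 27 to 45 higher and 16 to 26 lower. Against 1:1, 2 arms were lower with the replicate block and 0 to 3 with 1 set left out. Without equal depths the gain in arms detected was -21.0, and without dme-bantam-3p, an alternative added after seeing the data, the gain in arms needed for 90% of fly counts was 0. The cause of these moves was not tested.

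Signs of named arms turned as follows. For arms not called by share, with TMM factors and with dme-bantam-3p left out of the totals, the changes were -0.15 and -0.19 for dme-mir-8-3p, -0.38 and -0.41 for dme-mir-34-5p, -0.36 and -0.39 for dme-mir-11-3p, -0.27 and -0.28 for dme-mir-306-5p, -0.31 and -0.33 for dme-mir-9c-5p, -0.050 and -0.078 for dme-mir-263a-5p, -0.092 and -0.12 for dme-mir-1003-3p and -0.32 and -0.35 for dme-mir-14-3p. With dme-bantam-3p left out they were -0.013 for dme-mir-33-3p and -0.015 for dme-mir-1006-3p. With 1 set left out dme-mir-306-5p lay between -0.073 and 0.43 and dme-mir-279-3p between -0.19 and 0.019. Relative to mouse, dme-mir-9c-3p, called higher in the reported fit, was at -0.45 with total counts, and with 1 set left out dme-mir-1013-3p lay between -6.12 and 4.46.

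With the pair as a block, 10 more of the arms named by share were called and 0 fewer. Alternatives that need the mature sequences of both species were not run, nor was DESeq2 for the differences between ratios. Depth limited the oxidised libraries most: in replicate 2 a count of 0 allows up to 0.0103% of fly and 0.0701% of mouse counts. The alternatives on mmu-mir-184-3p and on minor arms were also added after seeing the data.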
